A study of Canis lupus familiaris with 6 samples.

Results

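Wnt ligands were followed in β-cat ΔN/RasV12 cells, with WNT7A as the leading gene. The set was 10 ligand genes, WNT7A, WNT7B, WNT4, WNT5A, WNT5B, WNT9A, WNT10A, WNT11, WNT3A and WNT6, chosen with the fall of WNT7A between the cultures of these arrays already known. Members were found by the gene name column of the array design. It held 8 of the 10 genes, among 34378 distinct gene names on the array, and they had 9 probes. WNT10A and WNT3A were not among the gene names. All samples were MDCK cells, a dog kidney epithelial line, that stably carried mCherry-tagged β-catenin Δ131 (β-cat ΔN, which lacks its N-terminus) and GFP-tagged RasV12 under tetracycline control. The single culture group (3 arrays) held these cells alone. The mix culture group (3 arrays) held them with 10 β-cat ΔN cells per RasV12 cell, so that the neighbours also carried the stabilised β-catenin. After 24 h of tetracycline on collagen-coated dishes, GFP-positive cells were sorted in both groups and their RNA was measured on single-colour arrays. By the labels every array is of cells with both transgenes, and the purity of the sort was not measured here. The labels do not say whether replicates came from separate cultures, so the p-values measure the spread between these arrays, which may be technical.

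Wnt ligands are secreted glycoproteins that carry a lipid. Porcupine (PORCN) attaches the lipid, Wntless (WLS) takes the ligand to the cell surface, and Frizzled receptors with LRP5 or LRP6 receive it. The receptor complex switches off the APC, AXIN and GSK3 complex that destroys β-catenin, and β-catenin then drives transcription with TCF and LEF factors. A β-catenin without its N-terminus escapes this destruction, which places it downstream of the ligands. WNT7B is a collecting duct ligand needed for the kidney medulla, WNT9B and WNT11 act from the ureteric bud, and WNT4 drives nephron formation. WNT5A and WNT5B act mainly through the β-catenin-independent branch.

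The probe sequences show what each value rests on, and they are printed for the 5 member genes that were measured above background. Each probe is a 60-base oligonucleotide, written 5′ to 3′ in the transcript's sense as the array design gives it, with positions on CanFam3.1. The WNT7A probe lies at chr20:4073996-4074055 on the minus strand and ends in an in-frame TGA, and the WNT7B probe lies at chr10:20208134-20208193 on the plus strand. Capitals in this pair mark the bases that are identical where the probes overlap when laid over each other without gaps.
WNT7A: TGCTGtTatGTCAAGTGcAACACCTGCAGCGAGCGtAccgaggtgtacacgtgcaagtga
WNT7B: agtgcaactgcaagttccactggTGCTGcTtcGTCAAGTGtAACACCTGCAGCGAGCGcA
The overlap was 37 bases, of which 32 (86.5%) matched, with a longest identical run of 17 bases. It was the highest share of matching bases among the pairs of measured Wnt probes. Cross-hybridisation between the transcripts was not tested. The WNT5B probe, at chr27:43676019-43676078 on the plus strand, also ends in a stop codon, marked in capitals. Laid over the WNT7A probe along all 60 bases, it matched at 38 (63.3%).
WNT5B: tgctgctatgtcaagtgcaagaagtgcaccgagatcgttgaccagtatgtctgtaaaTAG
The WNT9A probe covers 991 bases of genome, chr14:953634-954624 on the plus strand, so it crosses a gap in the genome of more bases than it has itself. The brighter of the 2 WNT5A probes lies at chr20:34786296-34786355 on the plus strand. Both are shown because their values bear on how far the rest of the family followed WNT7A.
WNT9A: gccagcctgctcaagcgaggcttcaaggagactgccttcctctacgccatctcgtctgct
WNT5A: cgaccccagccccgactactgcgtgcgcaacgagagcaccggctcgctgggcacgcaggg
The other WNT5A probe, at chr20:34790375-34790434 on the plus strand, has a GC content of 35% against 73.3% in the brighter one. Each probe was assigned to its gene by the array design, and annotation of exons and UTRs was not used here.

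Of the 8 member genes on the array, 5 were well above background on all 6 arrays. These were WNT7A, WNT7B, WNT5A (both probes), WNT5B and WNT9A, with 6 probes, and each passed the filter in both cultures. WNT4, WNT11 and WNT6 were not well above background on any array. The WNT4 probe read 2.99 to 4.86 intensity units in single culture and 1.92 to 4.37 in mix culture. The WNT6 probe read 3.54 to 5.83 and 1.73 to 4.59, and the WNT11 probe 1.31 to 1.46 and 0.89 to 2.62. The lowest signal that counted as well above background lay between 4.19 and 4.48 units on the 6 arrays. It is not a cut-off, as some WNT4 and WNT6 readings were above this range without counting. Because none of these 3 genes counted as well above background, no fold is given for them. A probe that the design describes as WNT3A, under a transcript identifier in place of a gene name, read 1.03 to 1.101 units on all arrays and was not well above background on any.

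**Figure D1:**
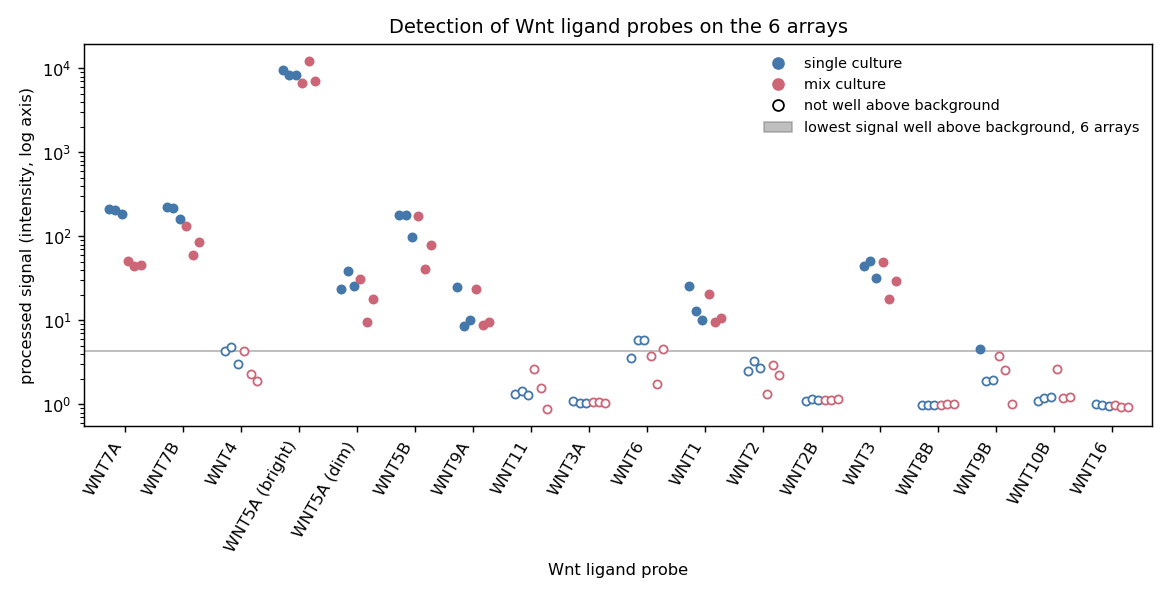
Processed signal (intensity units, log axis) of each Wnt ligand probe on the 6 arrays, in blue for single culture and red for mix culture, with open circles where the probe was not well above background and a grey band at the lowest signal that was (4.19 to 4.48 units). WNT7A, WNT7B, both WNT5A probes, WNT5B, WNT9A, WNT1 and WNT3 are filled on all 6 arrays, and the WNT7A points of the cultures are apart.

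WNT7A was lower in mix culture on every array. Its probe read 213.6, 207.2 and 183.4 intensity units in single culture replicates 1, 2 and 3, and 50.9, 43.9 and 46.0 units in mix culture replicates 1, 2 and 3. The groups did not overlap, and the lowest single culture array was above the highest mix culture array by more than the range within either group. After scaling each array to its 75th percentile, the normalised log2 level was 0.15 ± 0.14 (SD, n = 3) in single culture and -2.01 ± 0.19 (SD, n = 3) in mix culture. The log2 change, mix minus single culture, was -2.17 with an SE of 0.17, a 4.49-fold lower level. None of the 26623 probes tested had a lower log2 change. WNT7A was selected on this contrast, so these values describe it and no p is given. In RNA of a sorted population, fewer cells that express a gene and less of its RNA per cell cannot be told apart. The change was -2.25 on slide 1, which held replicate 1 of each culture, and -2.13 on slide 2, which held replicates 2 and 3. With normexp background correction of the median spot signals it was -1.50.

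WNT7B, the closest relative of WNT7A, was also lower on every mix culture array. It read 224.1, 217.8 and 161.2 intensity units in single culture replicates 1 to 3, and 133.6, 60.3 and 86.6 units in mix culture. The highest mix culture array stood below the lowest single culture array. The normalised log2 level was 0.14 ± 0.24 (SD, n = 3) against -1.09 ± 0.43 (SD, n = 3), a log2 change of -1.23 with an SE of 0.25, or 2.35-fold lower. The spread in mix culture came mainly from replicate 2, at -1.58, beside -0.80 and -0.89. The change was -0.92 on slide 1 and -1.38 on slide 2. The overlap of its probe with that of WNT7A, printed above, applies to both genes' values.

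WNT5B followed less evenly, and its groups overlapped. Its signal was 177.5, 180.8 and 97.3 intensity units in single culture and 174.2, 41.4 and 78.7 units in mix culture. The arrays of slide 1 read nearly alike, and mix culture replicate 2 alone lay far below the rest. The normalised log2 level was -0.31 ± 0.48 (SD, n = 3) in single culture and -1.19 ± 0.87 (SD, n = 3) in mix culture. The log2 change was -0.89 with an SE of 0.45, and it was -0.21 on slide 1 and -1.23 on slide 2. It was -0.42 without mix culture replicate 2.

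WNT5A was measured by 2 probes that disagreed. The brighter one read 9602, 8419 and 8344 intensity units in single culture and 6663, 12131 and 7134 units in mix culture. Its mix culture arrays lay on both sides of the single culture arrays. The log2 change was -0.14 with an SE of 0.30, at -0.71 on slide 1 and 0.14 on slide 2. The dimmer probe read 23.8, 38.3 and 25.4 units in single culture and 30.7, 9.63 and 17.9 units in mix culture. Mix culture replicate 2 was thus the highest of the 6 arrays for one WNT5A probe and the lowest for the other. The dimmer probe's log2 change was -0.77 with an SE of 0.40, at 0.19 on slide 1 and -1.26 on slide 2, and it was -0.38 without mix culture replicate 2 and -0.50 without single culture replicate 2. With both signs turned between slides, no direction is given for WNT5A.

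WNT9A, the last of the measured members, showed no clear difference between cultures, at a low signal. Its signal was 25.03, 8.61 and 10.1 intensity units in single culture and 23.6, 8.76 and 9.68 units in mix culture. The arrays of slide 1 were high in both cultures. The log2 change was -0.10 with an SE of 0.40, and it turned positive without single culture replicate 1 (0.28) or without mix culture replicate 2 (0.12).

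**Figure D2:**
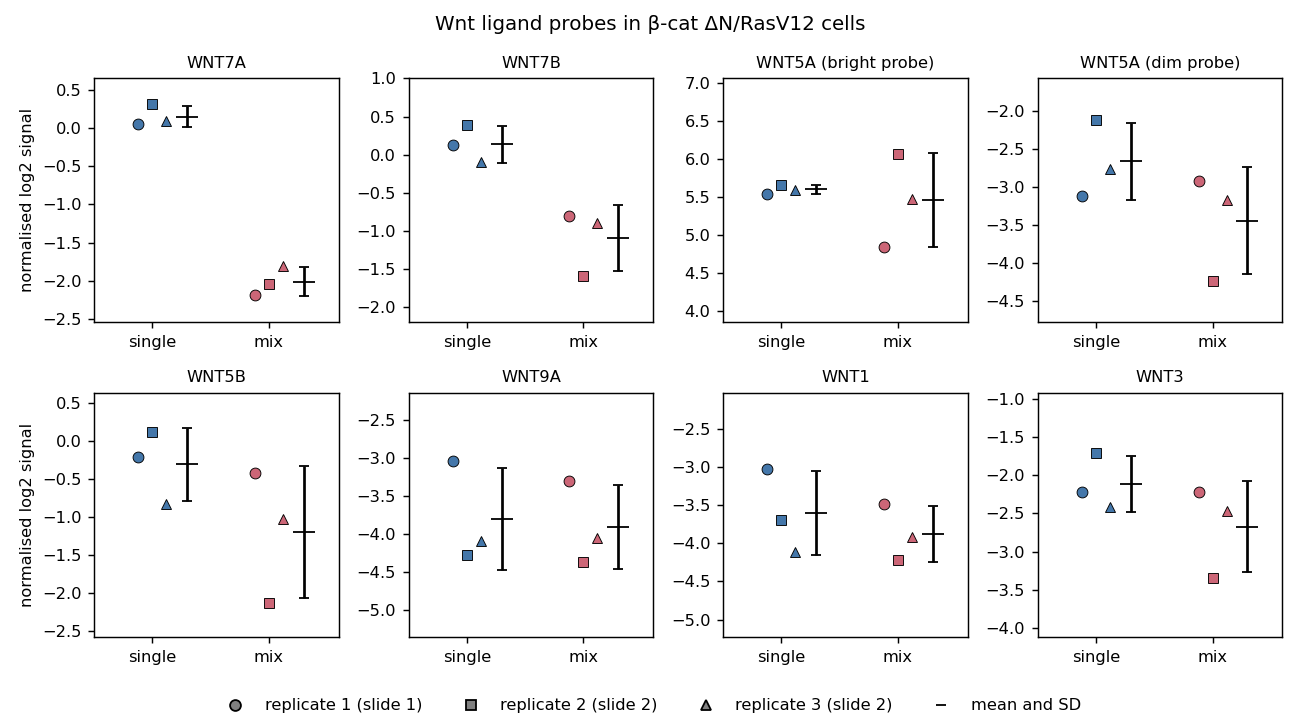
Normalised log2 signal of the 8 Wnt ligand probes that were well above background on all arrays, by culture, with circles, squares and triangles for replicates 1, 2 and 3 and bars for the mean and SD of 3 arrays; every panel spans the same number of log2 units. WNT7A (0.15 against -2.01) and WNT7B (0.14 against -1.09) separate the cultures, and mix culture replicate 2 is the lowest point for WNT7B, WNT5B, the dimmer WNT5A probe, WNT9A, WNT1 and WNT3.

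Of the other Wnt ligands, 8 genes had probes, 6 of them by gene name and WNT2B and WNT16 by the description. WNT1 and WNT3 were well above background on all 6 arrays. WNT3 read 44.1, 51.1 and 32.4 intensity units in single culture and 50.2, 17.8 and 29.2 units in mix culture, and its groups overlapped. Its log2 change was -0.56 with an SE of 0.33, at 0.01 on slide 1 and -0.84 on slide 2, and it was -0.23 without mix culture replicate 2. WNT1 read 25.3, 12.9 and 9.99 units in single culture and 20.7, 9.69 and 10.6 units in mix culture, a log2 change of -0.27 with an SE of 0.32, which turned to 0.02 when single culture replicate 1 was left out and came to -0.10 when mix culture replicate 2 was. WNT9B was well above background on single culture replicate 1 alone, at 4.601 units. WNT2, WNT2B, WNT8B, WNT10B and WNT16 were not well above background on any array.

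The members' counts stood as follows. All 6 member probes tested had a lower mean in mix culture, although the sign turned for both WNT5A probes and WNT9A in at least 1 alternative, and 58.0% of all probes tested had a lower mean. For 2 of the 6, WNT7A and WNT7B, every mix culture array lay below every single culture array, as for 8.66% of all probes tested. The limma fit called 1 of the 6, WNT7A, at a Benjamini-Hochberg adjusted p under 0.05, against 235 of 26623 probes (0.883%). With the slide as a block it called 2, WNT7A and WNT7B, against 7.2% of probes, and with the replicate number as a block it called the same 2, against 5.25%. The members were chosen on this contrast, so nothing is read from these counts. Over the brightest probe of the 5 measured genes, the median log2 change was -0.89, beside -0.05 over all probes tested. That median is the WNT5B value. Without mix culture replicate 2 the median was -0.45, then the value of the brighter WNT5A probe.

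How the ligands varied between arrays of one culture was not used to choose them. On slide 2, single culture replicate 2 stood above replicate 3 and mix culture replicate 2 below replicate 3 for 4 of the 6 member probes, against 31.5% of all probes tested. This order was not planned beforehand and the probes share their arrays, so nothing is read from the count. It also rests on which mix culture array is replicate 2 and which is 3, which is in doubt. WNT5B was at 0.12 and -0.83 normalised log2 units in single culture replicates 2 and 3, and at -2.13 and -1.03 in mix culture replicates 2 and 3. WNT7B was at 0.39 and -0.10, and at -1.58 and -0.89. The dimmer WNT5A probe was at -2.12 and -2.76, and at -4.23 and -3.17. WNT7A showed the smallest such steps, at 0.31 and 0.09, and at -2.04 and -1.81. WNT3, outside the set, had the same order, at -1.70 and -2.41, and at -3.34 and -2.46. Between slides, limma with the culture in the model called 47.2% of all probes and 1 of the 6 member probes. That was WNT9A, which was lower on slide 2 by a log2 difference of -1.03 (SE 0.14, limma adjusted p = 0.000832). WNT7A differed by 0.21 between slides (SE 0.13, limma adjusted p = 0.21) and WNT7B by -0.21 (SE 0.22, limma adjusted p = 0.469). Outside the member set, WNT1 was lower on slide 2 by -0.73 (SE 0.16, limma adjusted p = 0.00733).

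**Figure D3:**
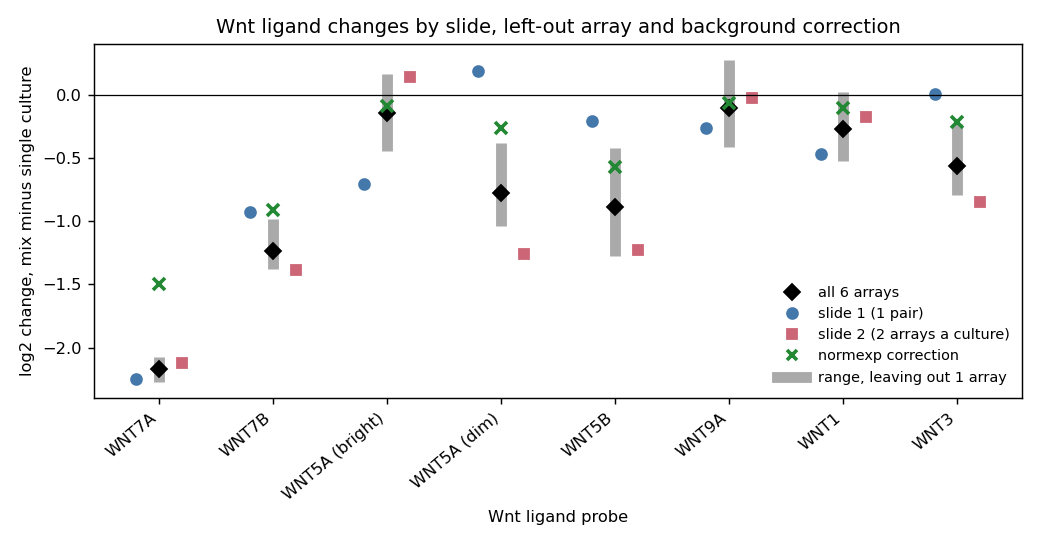
Log2 change, mix minus single culture, of the 8 measured Wnt ligand probes over all 6 arrays (black diamonds), on slide 1 (circles, 1 pair), on slide 2 (squares, 2 arrays a culture) and after normexp correction (crosses), with grey bars for the range when 1 array is left out. WNT7A stays between -2.27 and -2.08 over the left-out arrays, whereas the slides lie apart for WNT5B, both WNT5A probes and WNT3.

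The pattern of WNT7A over the 6 arrays was set against 14792 probes of named genes that were well above background on all arrays. The 5 genes most like it by Pearson correlation of normalised log2 values were CHST10 (r = 0.995), a sulfotransferase, ERRFI1 (r = 0.992), a feedback inhibitor of the EGF receptor, ADAM9 (r = 0.989), a membrane metalloprotease, KIFC3 (r = 0.988), a kinesin, and EMP1 (r = 0.988), an epithelial membrane protein. Their log2 changes were -0.28, -0.85, -0.33, -0.41 and -1.21 in the same order. The points share their arrays and fall into separate cultures, so the coefficients describe likeness over 6 arrays alone. WNT7B had r = 0.914 with WNT7A, the dimmer WNT5A probe 0.64, WNT5B 0.61, the brighter WNT5A probe 0.24 and WNT9A 0.03.

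The rest of the pathway was counted over hand-written lists of 157 genes that held no ligand. The array named 131 of them, and 99 were tested, each by its brightest probe. In the limma fit 1 of the 99 was called, APCDD1, which rose, beside the 0.883% of all probes, and none fell, while 8 of the 99 (8.08%) had an unadjusted p under 0.05, as 8.71% of all probes tested had. With the slide as a block 3 were called higher (APCDD1, RNF43 and ANKRD6) and 5 lower (DKK3, AMER1, NFATC2, CCND1 and FOSL1, the last named after its values were seen), 8 of 99 beside the 7.2% of all probes. With the replicate block 6 were called, without DKK3 and AMER1. The median log2 change of the 99 was -0.10.

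The machinery that makes and sends Wnt ligands was measured in full, and none of its genes was called. All 11 genes were well above background on all arrays, with log2 changes from -0.16 to 0.19 and a median of 0.04. SNX3 (0.19, SE 0.22), VPS26A (-0.16, SE 0.27) and TMED5 (0.17, SE 0.20), which sort Wntless or Wnt cargo between membranes, had the largest changes. PORCN (0.14, SE 0.16) and WLS (0.04, SE 0.22) were named for their role after their values were seen.

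Receptors and co-receptors also held no called gene, of 11 tested. Their median log2 change was -0.18, and 10 of the 11 had a lower mean in mix culture, beside 58.0% of all probes tested. The largest differences were those of the Frizzled receptors FZD2 (-0.44, SE 0.24) and FZD5 (-0.41, SE 0.18) and of GPR125 (-0.42, SE 0.15), an adhesion receptor. RECK and GPR124, which together read WNT7A and WNT7B in brain endothelium, were not well above background on any array. The same held for FZD4, FZD10, LRP4, ROR1 and ROR2.

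Antagonists and the turnover of Frizzled receptors held the called gene. APCDD1, a membrane protein that binds Wnt ligands and blocks them, is also a β-catenin target and stood on both lists. By its brighter probe it was at 0.06, -0.24 and -0.28 normalised log2 units in single culture replicates 1 to 3, and at 0.93, 1.15 and 0.79 in mix culture. The groups did not overlap, and the log2 change was 1.11 (SE 0.18, limma adjusted p = 0.0441). The adjusted p lay between 0.00305 and 0.256 over 15 alternatives and was under the threshold in 6, being over it without single culture replicate 2 or 3 or any 1 mix culture array. The other APCDD1 probe differed by 0.97 (SE 0.36, limma adjusted p = 0.505). Its limma adjusted p was 0.00405 with the slide block and 0.00465 with the replicate block. DKK3, of the Dickkopf family, differed by -0.84 log2 units (SE 0.26, limma adjusted p = 0.357), and its other probes gave -0.55 and -0.67. With the replicate block these other probes were under the threshold (limma adjusted p = 0.0473 and 0.0173), and the brightest was not (limma adjusted p = 0.0569). IGFBP4, which can block Frizzled and LRP6, had 0.81 (SE 0.58, limma adjusted p = 0.819). RNF43 and ZNRF3 are ubiquitin ligases that remove Frizzled from the membrane. RNF43 was at 3.73 ± 0.10 normalised log2 units in single culture and at 4.41 ± 0.09 in mix culture (SD, n = 3 each), a difference of 0.68 (SE 0.15). Its limma adjusted p was 0.135, and 0.0107 once the slide was a block. ZNRF3 had 0.41 (SE 0.40), and LGR4, an R-spondin receptor, had 0.14 (SE 0.18).

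**Figure D4:**
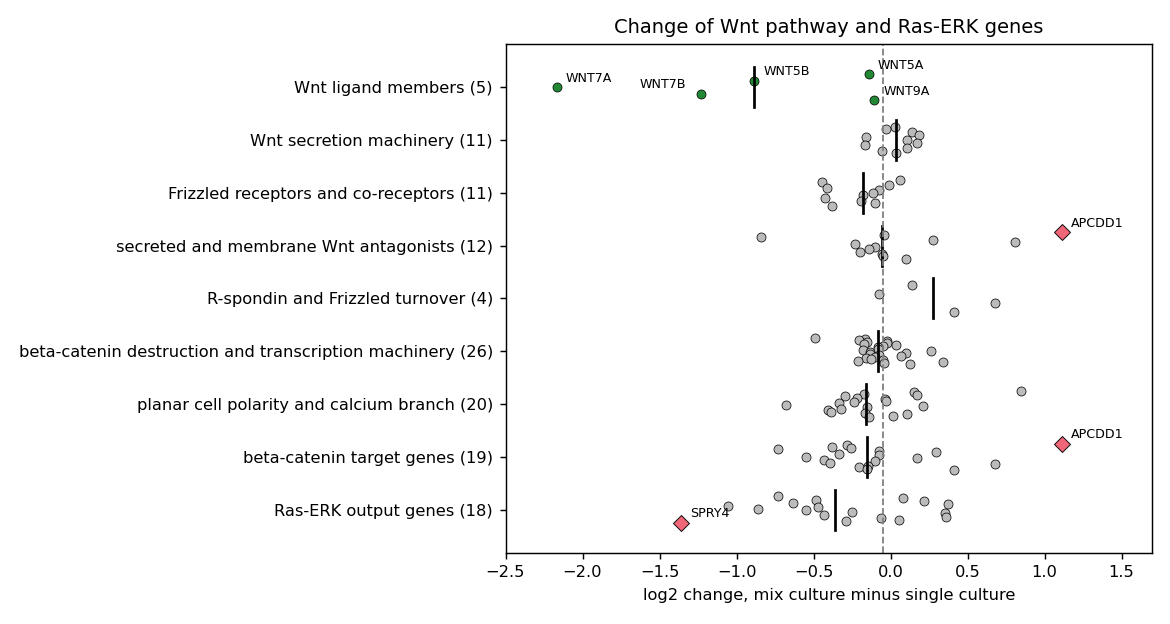
Log2 change, mix minus single culture, of each tested gene of the Wnt and Ras-ERK lists (1 point a gene, its brightest probe; number of genes in brackets), with red diamonds for genes called by limma at an adjusted p under 0.05, black bars for list medians and a dashed line for the median of all probes tested (-0.05). Member genes are green and carry no test mark; APCDD1 (1.11) and SPRY4 (-1.36) are the called genes.

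Among the β-catenin destruction and transcription machinery, none of 26 tested genes was called, with a median of -0.08. AMER1, a scaffold of the destruction complex, had the largest difference (-0.49, SE 0.51), then TLE4 (0.34, SE 0.29), a co-repressor, and CTNNB1 (0.26, SE 0.25), whose probe was not checked against the introduced β-catenin. In the planar cell polarity and calcium branch none of 20 was called. ANKRD6 (0.85, SE 0.23), NFATC2 (-0.68, SE 0.28) and PRICKLE2 (-0.41, SE 0.17) had the largest differences. Of 31 β-catenin target genes listed, 25 were on the array and 19 were tested. AXIN2, NKD1, NKD2, SP5 and TCF7 were not among those tested. Of the 19, 1 rose, APCDD1, and none fell. The targets DKK1, LEF1, LGR5, MMP7 and MSX1 were not well above background on any array. CCND1, the cyclin of early cell cycle entry, differed by -0.73 log2 units (SE 0.33), at a limma adjusted p of 0.628 and of 0.0161 once the slide was a block. The median of the targets was -0.15, and 9 of the listed targets stood on another list of the pathway too. A further 3, CCND1, MYC and FOSL1, are also on the Ras-ERK list below.

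Of 18 tested genes that Ras and ERK signalling induce, 12 had a lower mean in mix culture, beside 58.0% of all probes, with a median log2 change of -0.36, and 6 had a higher one. Lower output of this pathway within the sorted cells and carry-over of neighbours without RasV12 cannot be told apart by these genes. SPRY4 alone of the 18 was called, beside 0.883% of all probes, a feedback inhibitor of Ras-ERK signalling, which fell by 1.36 on the log2 scale (SE 0.21, limma adjusted p = 0.0357). Its adjusted p lay between 0.00152 and 0.414 over 15 alternatives and was under the threshold in 7, being over it without single culture replicate 2 or 3 or any 1 mix culture array, and its log2 change was -0.48 with normexp correction. With the slide block 6 of the 18 were called, all lower, beside 7.2% of all probes called in either direction. EREG, a ligand of the EGF receptor, differed by -1.05 log2 units (SE 0.24, limma adjusted p = 0.16), and ETV5, a transcription factor, -0.86 (SE 0.34, limma adjusted p = 0.535). The summed level of the 18 genes, in multiples of each array's 75th percentile, was 129.4 to 155.6 in single culture and 101.7 to 117.5 in mix culture. The brightest probes carry this sum, led by DUSP6 at a mean normalised log2 level of 6.21 (single culture) and 5.72 (mix culture). The part of this sum in the WNT7A values was not tested.

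Kidney epithelial markers were detected, which does not by itself identify the line. All 12 kidney epithelial markers on the array were well above background on all arrays and none was called, while the slide block called 3, all lower, beside 7.2% of all probes. Their median log2 change was -0.21, with 10 of the 12 lower, beside 58.0% of all probes tested, and 2 higher, GATA3 (0.88, SE 0.30) and PAX8 (0.47, SE 0.29). Their summed level, which the brightest probes carry, was 852 to 1053 in single culture and 611 to 808 in mix culture. Its part in the results was not tested. Markers of other cell types were in part detected. By brightest probe, the fibroblast genes COL1A2, PDGFRB and THY1 and the endothelial genes PECAM1, VWF and KDR were well above background on all arrays. So were the immune genes CD3E, CD79A, CD68 and CD14. VWF was the brightest of these, with a mean normalised log2 level of 2.76 (single culture) and 2.68 (mix culture). Whether their signal came from other cells was not tested. Not well above background on any array were 3 of 8 fibroblast genes (COL3A1, DCN and PDGFRA) and 2 of 6 endothelial genes (ESAM and TEK). The same held for 3 of 7 immune genes (AIF1, LYZ and PTPRC). No gene on these lists was called. The summed levels of these lists overlapped between cultures, at 1.502 to 2.58 against 1.40 to 2.11 for fibroblast, 5.52 to 14.1 against 4.68 to 14.4 for endothelial and 1.41 to 1.69 against 1.39 to 1.49 for immune markers. Between 61.1% and 65.7% of all spots were well above background on the 6 arrays.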

How the data were processed

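Total RNA of sorted β-cat ΔN/RasV12 cells was labelled with Cy3 and hybridised to 6 Agilent canine (V2) arrays, 3 a culture. Groups and replicate numbers come from the sample titles. The authors deposited 1 scanner file for each array, whose intensity values Agilent Feature Extraction had background-subtracted but not scaled between arrays. Replicate 1 of each culture lay on slide 1 (Feature Extraction 11.5.1.1, 3 µm scan), replicates 2 and 3 on slide 2 (12.1.1.1, 5 µm). A deposited table of log2 values, whose steps are not stated, served as an alternative. Its 2 columns of slide 1 summed to 0 within 0.011 for 100% of probes, so it is centred within slides, and its columns for mix culture replicates 2 and 3 matched each other's scanner files (correlations 0.999 and 0.993, against 0.457 and 0.459 for the file of the same title), which leaves group means unaltered. Mix culture replicates 2 and 3 are named here by the titles of the scanner files, and the table leaves their order in doubt.

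Here spots with outlier flags were dropped (5 to 9 an array), spots of a probe were averaged, and log2 of the intensity was taken minus each array's 75th percentile. Saturated spots did not occur. A probe entered the fit when well above background (the scanner software's flag) on every array of at least 1 culture, which left 26623 of 43603 probes. The cultures were set against each other by limma 3.58.1 (R 4.3.3), two-sided, with Benjamini-Hochberg adjustment over all of these probes, and called at an adjusted p under 0.05. The procedure was tested on simulated data. Tables were made with Python 3.11.15 and pandas 2.3.3. With 6 arrays, their number limits the precision.

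The members and the gene lists were chosen with earlier results of these data known. The text names every Wnt ligand probe, the called genes and the 3 largest changes of each pathway list, and the 5 genes most like WNT7A over the arrays. List genes were matched by gene name, and 17 probes by the symbol in the description. RefSeq's table for UU_Cfam_GSD_1.0 gave names only. Lists were counted without set tests.

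Deviations from the group means correlated at 0.801, 0.53 and 0.572 for replicates 1, 2 and 3 of the cultures, so the replicate number served as a block in an alternative fit. The fit reported held the culture alone, without the replicate number or the slide. Arrays of slide 2 with different numbers correlated as much (0.61 and 0.632), so the pairing on slide 2 is not settled. Alternatives were quantile normalisation, normexp correction with an offset of 50 on median spot and background signals, other filters, the replicate block, the slide block, slide 2 alone, the deposited log2 table, the mean over a gene's probes, the methods' test and leaving out each array. Slide 1 alone, and the replicate block with mix culture replicates 2 and 3 exchanged, were added after seeing the data.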

Additional observations from a re-analysis of the deposited data

How the results depend on the processing

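The log2 change of WNT7A moved beyond the spread of its arrays under one setting, to -1.50 with normexp correction. Leaving out 1 array gave -2.27 to -2.08. The replicate block could not move the change from -2.17, because each replicate number holds 1 array of each culture. The median over the measured members stayed below 0, from -1.27 to -0.45 with 1 array left out. Of 107 values of the other Wnt ligand probes under alternatives, 104 moved by less than the spread between arrays. The other 3 were on slide 1 alone, for WNT3 and both WNT5A probes. Part of the 104 could not move. The filters leave a probe's change as it is, and so do the slide and replicate blocks, which hold as many arrays of each culture. Of 26623 probes, 235 were called in the fit reported. The replicate block called 1399, or 1446 as a crossed replicate block with mix culture replicates 2 and 3 exchanged, the slide block 1917, slide 2 alone 983 and the deposited log2 table, centred within slides, 4077. Normexp correction called 100 and the filter on all 6 arrays 143, and leaving out 1 array gave 86 to 242, with 94 without single culture replicate 3, 92 without mix culture replicate 2 and 86 without mix culture replicate 3. The methods' test gave 2590 probes at an unadjusted p under 0.05 and called 8 after Benjamini-Hochberg adjustment. Called Wnt pathway genes, 1 in the fit reported, were 6 with the replicate block, 6 with the crossed one, 8 with the slide block, 3 on slide 2 alone and 16 with the table. They were 0 under limma with normexp correction, no filter, the filter on all 6 arrays and the mean over a gene's probes, and 0 to 1 with 1 array left out. They were 0 under the methods' test, in which 9 of 99 had an unadjusted p under 0.05, as 8 had in limma. The cause was not tested. Low signal limits WNT4, WNT6, WNT11 and WNT3A, for which no change can be read.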
